A study of Mus musculus with 15 samples.

Results

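The Rhox genes (reproductive homeobox genes) form 1 large cluster on the mouse X chromosome, and 7 of them are described here: Rhox1, Rhox4b, Rhox5, Rhox6, Rhox9, Rhox10 and Rhox13. They are 7 of 41 Rhox genes, and of 38355 genes in all, in the authors' deposited table, and were chosen by name after their log2 fold changes were known. The study sequenced RNA from embryonic stem cells in 2i medium, which holds cells in the naive state with LIF and inhibitors of MEK and GSK3. There were 15 samples in 5 groups of 3 replicates. The wild-type line E14TG2a is called E14-WT, and Ezh2-WT is a wild-type line whose Ezh2 alleles are floxed (Ezh2[fl/fl]). Ezh2-KO (Ezh2[-/-]) and Suz12-KO (Suz12[-/-]) are labelled as knockouts of core members of PRC2, Polycomb repressive complex 2, a histone H3 methyltransferase. Ring1A+B-DKO is labelled as a double knockout (Ring1A[-/-];Ring1B[-/-]) of the histone ubiquitin ligases of PRC1, Polycomb repressive complex 1. Ezh2-KO was compared with Ezh2-WT, and Suz12-KO, Ring1A+B-DKO and Ezh2-WT were each compared with E14-WT. These last 3 comparisons share the E14-WT samples. The labels name neither a matched wild type for Ring1A+B-DKO nor the line from which Suz12-KO was made, so line and genotype cannot be told apart there. They also do not say whether each knockout line is 1 clone.

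Rhox genes encode homeodomain transcription factors that are expressed mainly in the testis, epididymis, ovary and placenta. In mice the cluster is usually divided into an alpha part (Rhox1 to Rhox4, with many tandem copies), a beta part (Rhox5 to Rhox9) and a gamma part (Rhox10 to Rhox13). Promoter DNA methylation is known to keep much of the cluster silent in embryonic and somatic cells, and Polycomb complexes are a second class of repressors of germ cell genes in stem cells.

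Each value and call below was taken from the authors' deposited table, in which a gene has, per comparison, 1 log2 fold change and a mark for whether it was called regulated. The table holds no value per sample, standard error or p-value, so the error of each value and the depth behind it are unknown, and no difference between comparisons could be tested. The 1275 genes with reads in Ring1A+B-DKO alone, by their missing values, had a median of 0.20 there. The values are thus not plain ratios of reads, and sizes may not be on the same scale between comparisons. Folds given below are these values taken off the log scale. Positive values mean a higher level in the group named first. To that end the sign was turned in the 3 columns that involve E14-WT, which hold E14-WT over the named group under the reading of missing values given with the processing. The words rose and fell are kept for called genes, whose smallest absolute log2 fold change was 1.00 in Ring1A+B-DKO, 1.01 in Suz12-KO, 1.06 in Ezh2-KO and 1.01 in Ezh2-WT. Among the deleted genes, Ring1 fell in Ring1A+B-DKO, to -2.03, and Rnf2 (the gene of Ring1B), Suz12 and Ezh2 stood at 0.17, -1.04 and -0.14 in their own knockouts without a call. The deleted exons are not stated and the table has 1 value per gene, so the values of Rnf2, Suz12 and Ezh2 neither bear out nor go against the labels.

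The members differed in which knockout they rose in. In the authors' deposited table Rhox5 rose in Suz12-KO and in Ring1A+B-DKO, Rhox6 and Rhox9 rose in Ring1A+B-DKO, and the other 4 members had no call. No member fell in any of the 4 comparisons, beside 0.133%, 0.114%, 0.62% and 0.247% of all genes with a value called lower in the comparisons of Ezh2-KO, Suz12-KO, the double knockout and Ezh2-WT. Of the members with a value, 0 of 4 rose in Ezh2-KO, 1 of 5 rose in Suz12-KO, 3 of 6 rose in Ring1A+B-DKO and 0 of 5 rose in Ezh2-WT. Over all genes with a value, 0.0442%, 0.0865%, 2.38% and 0.36% were called higher in these comparisons. The members were chosen from these same values, so nothing is read from the counts.

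**Figure D1:**
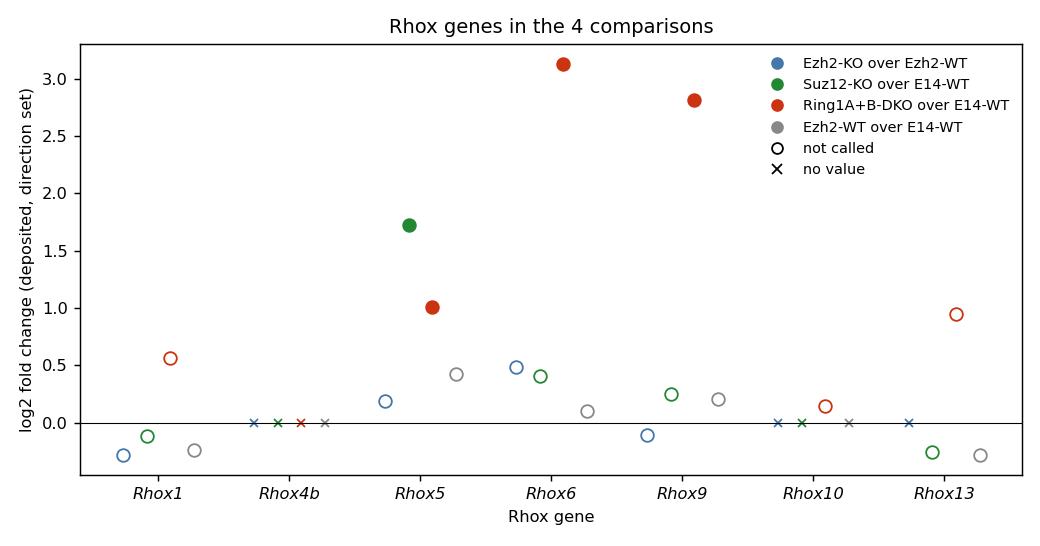
Log2 fold change (vertical axis) of the 7 Rhox genes (horizontal axis) in the 4 comparisons, as deposited by the authors with the direction set; filled circles were called, open circles were not, and crosses mark genes without a value. Rhox5 has its highest point in Suz12-KO (1.72), while Rhox6 (3.13) and Rhox9 (2.81) have theirs in Ring1A+B-DKO.

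Windows around the starts of 3 members are shown because they belong to a member that rose in both Suz12-KO and Ring1A+B-DKO (Rhox5), the uncalled member with the largest log2 fold change (Rhox13) and a member without a value (Rhox4b). Each is a RefSeq window of 300 bases on GRCm38.p6, from 250 bases before to 50 bases after a transcript's start, on the plus strand of the X chromosome. Capitals mark the dinucleotide CG and the E-box CACGTG, which the repressor pair MGA and MAX binds.
Rhox5, chrX:37754358-37754657: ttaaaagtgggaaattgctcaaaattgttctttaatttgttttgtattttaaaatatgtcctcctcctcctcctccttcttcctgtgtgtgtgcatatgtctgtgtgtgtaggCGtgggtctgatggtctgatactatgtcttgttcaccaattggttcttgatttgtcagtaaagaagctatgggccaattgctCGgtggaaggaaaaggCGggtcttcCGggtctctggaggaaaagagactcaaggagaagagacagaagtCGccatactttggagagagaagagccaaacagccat
Rhox13, chrX:38120590-38120889: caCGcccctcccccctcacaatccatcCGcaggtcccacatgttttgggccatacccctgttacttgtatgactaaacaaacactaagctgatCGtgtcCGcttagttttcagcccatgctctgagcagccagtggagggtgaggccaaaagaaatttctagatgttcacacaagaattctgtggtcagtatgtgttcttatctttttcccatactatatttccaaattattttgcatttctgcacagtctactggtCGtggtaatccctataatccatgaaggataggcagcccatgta
Rhox4b, chrX:37432244-37432543: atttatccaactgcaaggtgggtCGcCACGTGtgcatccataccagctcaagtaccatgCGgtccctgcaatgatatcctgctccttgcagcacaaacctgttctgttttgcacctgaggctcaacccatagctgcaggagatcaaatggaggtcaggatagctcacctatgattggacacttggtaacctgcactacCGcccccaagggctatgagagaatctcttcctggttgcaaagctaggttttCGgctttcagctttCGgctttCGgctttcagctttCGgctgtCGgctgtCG

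The Rhox5 window holds 5 CG dinucleotides and the Rhox13 window 5, beside a median of 7 over all 32851 windows of that length, and 38.0% of all windows hold fewer. The Rhox4b window holds 10, and the windows of Rhox10 and Rhox1 hold 9 and 0. The E-box CACGTG, searched on both strands, is in 5 of 28 Rhox windows, all 5 of them among the 7 Rhox4 windows, and in 7.15% of all windows. The E2F motif TTCCCGC, searched on both strands, is in 1 of 28 Rhox windows, that of the pseudogene Rhox11-ps2, and in 4.60% of all windows. It is in 0 of the 5 member windows, too few to say more. The motifs CACGTG and TTCCCGC each hold a CG, so their letters overlap with that count. The transcript start of the Rhox5 window lies 50.2 kb before the gene start given in GENCODE, and Rhox5 is known to have a distal and a proximal promoter, so the window covers one of its starts. Rhox6 and Rhox9 have no window in the table used.

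Rhox5 (ENSMUSG00000095180, chromosome X, 37804842 to 37808876 in GRCm38, plus strand), also called Pem, is the founding member of the family, and in the testis it is made by Sertoli cells under androgen control. In the authors' deposited table it rose in Suz12-KO by 1.72 on the log2 scale, 3.30-fold, the second highest of 16 called increases there. It also rose in Ring1A+B-DKO, by 1.01 or 2.02-fold, and this was the lowest of 469 called increases. Its value in Ezh2-KO was 0.19 and in Ezh2-WT over E14-WT 0.42, neither called. All 4 values of Rhox5 lie above 0. Its call in Ring1A+B-DKO stood close to the size at which calls begin, and its value there was 0.94 when centred on the median of all genes (0.07) and 0.95 when centred on that of X-linked genes.

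Rhox5 was 1 of 4 genes called higher in both Suz12-KO and Ring1A+B-DKO, by the authors' deposited table, which is 25.0% of the 16 increases of the first and 0.853% of the 469 of the second. The others were Dppa3, a germ cell and naive pluripotency gene (1.54 in Suz12-KO and 4.19 in Ring1A+B-DKO), the imprinted gene Sfmbt2 (1.44 and 2.52) and Gpc3, an X-linked glypican (1.24 and 1.13). Of all genes with a value, 2.38% were called higher in Ring1A+B-DKO, beside the 25.0%, and 0.0865% in Suz12-KO, beside the 0.853%. Both comparisons use E14-WT, so this overlap includes whatever is particular to those samples. Dppa3 stood at 1.25 and Rhox5 at 0.42 in Ezh2-WT over E14-WT without a call, a comparison with no knockout. Sfmbt2 and Gpc3 stood at 0.09 and 0.11 there.

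Rhox6 (ENSMUSG00000006200, chromosome X, 37826910 to 37829857, plus strand) and Rhox9 (ENSMUSG00000068048, chromosome X, 37899097 to 37901770, minus strand) were first described in mouse placenta, as Psx1 and Psx2. Rhox6 rose in Ring1A+B-DKO by 3.13, 8.76-fold, the highest of 844 X-linked genes with a value, by the authors' deposited table. Rhox9 rose by 2.81, 7.03-fold, the second highest of them. Among all 19693 genes with a value they were at positions 13 and 27. The pair stood far apart from Rhox5 in that comparison, and their values in Suz12-KO were 0.41 and 0.25 without a call. In Ezh2-KO Rhox6 stood at 0.49 and Rhox9 at -0.10, and in Ezh2-WT at 0.11 and 0.20, with no call in either. Whether the values in Ring1A+B-DKO and Suz12-KO differ beyond error was not tested.

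The transcripts of Rhox6 and Rhox9 align over 825 nt at 91.9% identity, 93.5% of the shorter one. This is under the 95% taken here as near-identical, but short reads from shared stretches could have been divided between them or left out. Their 2 increases may therefore not be fully separate measurements. Rhox5, Rhox6, Rhox9, Rhox1, Rhox10 and Rhox13 have 0 near-identical genes and overlap no other annotated gene.

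Rhox1 (ENSMUSG00000071773, chromosome X, 37213804 to 37222258, minus strand), at the alpha end of the cluster, had a value in all 4 comparisons and no call in the authors' deposited table. It stood at 0.57 in Ring1A+B-DKO, -0.11 in Suz12-KO, -0.28 in Ezh2-KO and -0.24 in Ezh2-WT. Its value lies above 0 in Ring1A+B-DKO and below 0 in the other 3 comparisons. The value in Ezh2-KO is shared with 12 other genes.

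Rhox13 (ENSMUSG00000050197, chromosome X, 38121219 to 38129967, plus strand), at the gamma end, encodes a protein that in mice is made in male germ cells on retinoic acid signalling. It stood at 0.94 in Ring1A+B-DKO without a call, just under Rhox5 at 1.01, the called member nearest to it. In Ring1A+B-DKO 1326 genes (6.73%) had a log2 fold change of at least 1, by the authors' deposited table, and 469 were called higher, so size alone did not give a call. Rhox13 stood at -0.25 in Suz12-KO and -0.28 in Ezh2-WT, values shared with 31 and 29 other genes, and had no value in Ezh2-KO. Under the reading of missing values it therefore had reads in E14-WT and none in Ezh2-KO or Ezh2-WT. Reads in Suz12-KO and Ring1A+B-DKO are not fixed by that pattern.

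Rhox10 (ENSMUSG00000053909, chromosome X, 38066475 to 38071691, plus strand) acts in mice in the founding of spermatogonial stem cells. It had 1 value, 0.15 in Ring1A+B-DKO, which is shared with 655 other genes and was not called. Its pattern of missing values places reads in Ring1A+B-DKO alone. Rhox4b (ENSMUSG00000071771, chromosome X, 37432494 to 37437279, plus strand), also known as Ehox and first described in differentiating mouse stem cells, had no value in any comparison of the authors' deposited table. It has 7 near-identical genes, the other Rhox4 copies, at 98.8% to 99.8% identity over 505 nt, so reads of Rhox4 genes may not have been assigned to one copy. A missing value of Rhox4b is thus no measure of the Rhox4 genes as a whole.

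The other 34 Rhox genes had no call in any comparison. Of these, 7 had a value in Ring1A+B-DKO, by the authors' deposited table, 2 in Suz12-KO, 2 in Ezh2-WT and 1 in Ezh2-KO. The values in Ring1A+B-DKO were 0.67 for Rhox4a, 0.25 for Rhox2d, 0.20 for Rhox7b and the pseudogene Rhox7-ps1, 0.15 for Rhox4d, -0.0019 for Rhox7a and -0.11 for Rhox2a. Rhox4e had its one value in Ezh2-KO, at 0.060. Rhox2a and Rhox7a stood at -0.06 and -0.10 in Suz12-KO and at -0.06 and -0.11 in Ezh2-WT. Most of these values are shared with many other genes, and Rhox2, Rhox4 and Rhox7 genes have near-identical copies.

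Grouped by the parts of the cluster, the called genes all lie in the beta part. Of its 6 protein-coding genes 5 had a value in Ring1A+B-DKO and 3 rose in the authors' deposited table, with a median of 1.01. Of 24 protein-coding alpha genes 5 had a value and 0 rose (median 0.25), and of 4 gamma genes 2 had a value and 0 rose (median 0.55). Of all genes with a value 2.38% were called higher there, so counts of 0 among so few genes say little. The 3 beta genes that rose are members chosen from these same values. Rhox5 ends 18.0 kb before Rhox6, and 69.2 kb separate Rhox6 from Rhox9. Rhox7a, Rhox8 and Rhox7b lie between Rhox6 and Rhox9 and had values of -0.0019, none and 0.20. Called increases thus did not cover each gene of the stretch of 96.9 kb from Rhox5 to Rhox9. Every protein-coding alpha gene but Rhox1 has near-identical genes, as have Rhox7a and Rhox7b. Reads of such genes may not have been assigned to a single copy, so the parts were not measured alike. This grouping was made with the values known, and no difference between the parts was tested.

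**Figure D2:**
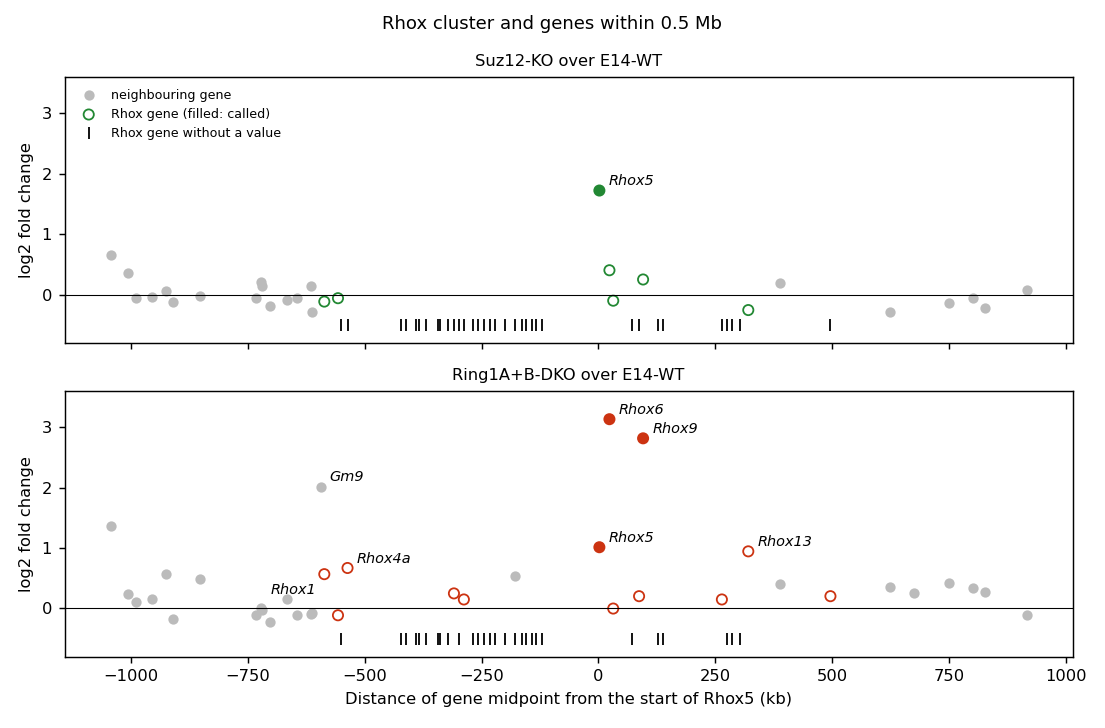
Log2 fold change (vertical axis) in Suz12-KO (top) and Ring1A+B-DKO (bottom) over E14-WT against the distance of each gene's midpoint from the start of Rhox5 in kb; filled coloured circles are called Rhox genes, open ones uncalled Rhox genes, ticks Rhox genes without a value and grey circles other genes within 0.5 Mb. Rhox5 stands alone above 1 at the top, and the called Rhox6, Rhox9, Rhox5 and Gm9 and the uncalled Rhox13, Rhox4a and Rhox1 are named at the bottom.

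The missing values also show which Rhox genes had reads in any group. Of 41 Rhox genes, 27 (65.9%) had no value in any comparison of the authors' deposited table, beside 61.7% of 2513 X-linked genes and 44.1% of all genes. Reads in Ring1A+B-DKO alone were found for 6 Rhox genes (14.6%), namely Rhox2d, Rhox4a, Rhox4d, Rhox7b, Rhox10 and Rhox7-ps1, beside 3.74% of X-linked and 3.32% of all genes. Near-identical copies are not independent, and depth per group is unknown. The 6 had no call, and their median log2 fold change was 0.20, equal to that of all 1275 genes with reads in that group alone.

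Genes beside the cluster were read in the same way. Within 0.5 Mb of the cluster or between its genes lie 45 other genes of the table, of which 24 had a value in Ring1A+B-DKO and 21 in Suz12-KO. In Ring1A+B-DKO 1 of them rose in the authors' deposited table, in the other 3 comparisons 0 rose, and none fell. Over all genes with a value 2.38% were called higher in Ring1A+B-DKO. The one that rose was Gm9 (ENSMUSG00000073243, chromosome X, 37209348 to 37211041), 2.76 kb from Rhox1, at 2.01. Slc25a43, 437 kb away, stood at 1.36 without a call. Zbtb33, the gene of the methyl-CpG binding protein Kaiso inside the cluster, stood at 0.40, 0.19, -0.14 and 0.01 in that order of Ring1A+B-DKO, Suz12-KO, Ezh2-KO and Ezh2-WT. On the far side the nearest gene is Atp1b4, without a value, and the nearest with a value is Lamp2, at 0.35 in Ring1A+B-DKO. The median of the neighbours was 0.19 in Ring1A+B-DKO and -0.05 in Suz12-KO, beside 0.07 and -0.03 over all genes.

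The X chromosome as a whole had medians near those of all genes. In the authors' deposited table the median of X-linked genes was 0.07 in Ring1A+B-DKO, -0.03 in Suz12-KO, -0.01 in Ezh2-KO and -0.06 in Ezh2-WT, beside 0.07, -0.03, -0.01 and -0.02 over all genes. In Ring1A+B-DKO 25 X-linked genes rose and 5 fell, and the share that rose was 2.96%, beside 2.38% of all genes. In Suz12-KO 3 rose, namely Rhox5, Klhl13 at 1.29 and Gpc3, and 0 fell. The share that rose there was 0.389%, beside 0.0865% of all genes. No X-linked gene was called in Ezh2-KO or Ezh2-WT, beside 0.177% and 0.607% of all genes called in either direction.

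Other germ cell genes give a setting for the Rhox values. The gene and marker lists below were chosen with earlier results of these data known, so their counts and medians are descriptions. Of 31 X-linked germ cell genes, 22 had a value in Ring1A+B-DKO and 2 rose, Taf7l, a testis paralogue of a TFIID subunit gene, at 2.12 and the RNA export factor gene Nxf2 at 1.84. Tex11, a meiotic crossover gene, stood at 1.47 and Mageb4 at 0.94 without a call. Their median was 0.47 in the authors' deposited table, and 0 fell. The 2 that rose are 9.09% of those with a value, beside 2.38% of all genes. In Suz12-KO 0 of 16 were called, with a median of -0.06. In Ezh2-KO 0 of 14 and in Ezh2-WT 0 of 16 were called, with medians of -0.03 in both.

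Of 27 germ cell genes listed as silenced by promoter DNA methylation, 26 autosomal and 1 X-linked (Taf9b, at 0.47 without a call), 14 rose and 0 fell in Ring1A+B-DKO, by the authors' deposited table. The share of these listed genes that rose was 51.9%, beside 2.38% of all genes. This list, too, was chosen with earlier results known, so no enrichment is read from that share. Their median was 1.60, beside 0.07 for all genes and 0.25 for all 13 Rhox genes with a value. The median was 0.98 for the 6 Rhox members with a value, which were chosen with these values known. Tdrd1, Tex101, Mael and Mov10l1 had the largest increases, at 3.62, 3.50, 2.93 and 2.85. Rhox6 at 3.13 and Rhox9 at 2.81 lay within the range of all 14 list genes that rose. In Suz12-KO 0 of 27 were called and the median was -0.13, and in Ezh2-KO 0 of 25 were called and the median was -0.12. In Ezh2-WT 1 of 27 rose (3.70%, beside 0.36% of all genes), Fkbp6 at 1.18, with a list median of -0.12.

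A list of 23 factors of DNA methylation and of the silencing of Rhox or germ cell genes, the demethylases Tet1 and Tet2 included, was read beside the germ cell genes. Of these factors 1 fell in Ring1A+B-DKO and 0 rose, by the authors' deposited table, which is 4.35% called lower beside 0.62% of all genes. The one that fell was Uhrf1, which recruits the maintenance methyltransferase to DNA, at -1.01. Dnmt1, that methyltransferase, stood at -0.88, Tet2 at -1.02, Dnmt3a at -0.50, Dnmt3b at 0.12, and E2f6, a repressor of germ cell genes, at 1.05, without calls. The list's median was -0.18 in Ring1A+B-DKO. In Suz12-KO and Ezh2-KO 0 of 23 were called, with medians of -0.09 and -0.03. In Ezh2-WT Dnmt3l, a cofactor of DNA methyltransferases, fell, to -1.56, 1 of 23 called lower beside 0.247% of all genes, and the median was -0.18. The part of these factors in the Rhox values was not tested.

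**Figure D3:**
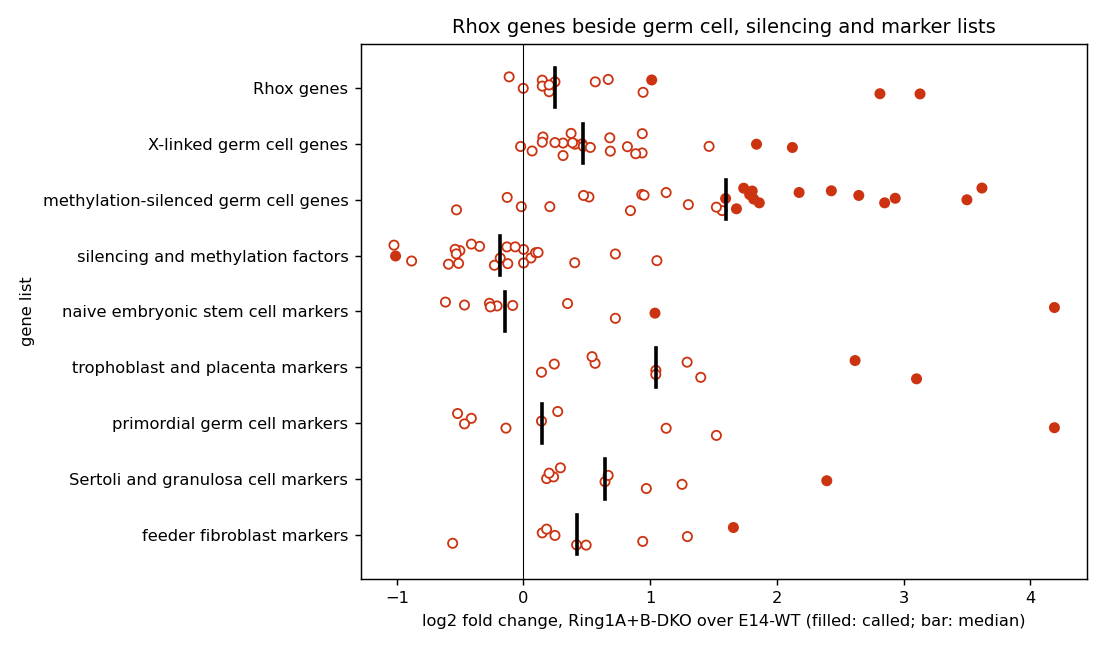
Log2 fold change in Ring1A+B-DKO over E14-WT (horizontal axis) of the Rhox genes with a value and of 8 gene lists (vertical axis); each circle is a gene, filled where called, and the bar is the list's median. Rhox6 and Rhox9 lie within the range of the called methylation-silenced germ cell genes, whose median is 1.60, while the Rhox genes other than these and Rhox5 lie below 1.

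Markers of cell types that express Rhox genes were read beside them, since in bulk RNA more cells of a type and more RNA per cell cannot be told apart. In Ring1A+B-DKO 2 of the 10 trophoblast and placenta markers with a value rose in the authors' deposited table, Krt18 at 3.10 and Krt8 at 2.62, and all 10 lay above 0 with a median of 1.04. The 2 that rose are 20% of those with a value, beside 2.38% of all genes. The trophoblast regulators Ascl2, Hand1, Eomes, Gata3, Cdx2, Elf5 and Tfap2c stood at 1.40, 1.29, 1.04, 1.04, 0.57, 0.24 and 0.14 without a call, and Gcm1, Prl3d1, Psg17 and Tpbpa had no value. In Suz12-KO 0 of 9 such markers were called, and their median was -0.0056. The 4 placental genes without a value in Ring1A+B-DKO had no read in either group under the reading of missing values. The part of the other markers in the Rhox6 and Rhox9 values was not tested.

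Of the Sertoli and granulosa cell markers, 1 of 9 rose in Ring1A+B-DKO, the endoderm and gonad factor gene Gata4 at 2.39, with a list median of 0.64. This is 11.1% of the list's genes with a value, beside 2.38% of all genes. Fshr, the receptor that defines those cells, had no value. In Suz12-KO, where Rhox5 also rose, 0 of 4 were called, and Cldn11, Foxl2, Fshr, Inha, Nr5a1 and Wt1 had no value. Among 9 primordial germ cell markers Dppa3 rose in both comparisons, Ddx4 and Dazl stood at 1.52 and 1.13 in Ring1A+B-DKO, and Kit, Prdm14 and Dnd1 at -0.52, -0.47 and -0.41. The list's median was 0.14 there and -0.14 in Suz12-KO. All 10 naive stem cell markers had a value in each of the 4 comparisons, 2 rose in Ring1A+B-DKO (Dppa3 and Klf4 at 1.04), and their median was -0.15. Of the feeder fibroblast markers 1 of 9 rose there, Thy1 at 1.66, with a median of 0.42. The shares that rose in Ring1A+B-DKO were 20% of the naive, 11.1% of the feeder and 11.1% of the primordial germ cell markers. In Suz12-KO Dppa3 alone rose, which is 10% of the naive and 11.1% of the primordial germ cell markers, beside 0.0865% of all genes. In Ezh2-KO 0 genes of these 5 marker lists were called. In Ezh2-WT 1 was, the pluripotency gene Nanog, which fell to -1.15. It is 10% of the naive markers, beside 0.247% of all genes called lower. The part of these markers in the Rhox values was not tested.

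Genes with the pattern most like that of each called member were sought by Euclidean distance over the 4 log2 fold changes, among 13452 genes with all 4 values in the authors' deposited table. For Rhox5 the nearest were Nfkbil1 (distance 0.57), Gpc3 (0.59), Zfp521 (0.61), Tmcc2 (0.83) and Faap24 (0.84), of which Gpc3 was called in both Suz12-KO and Ring1A+B-DKO and the rest in neither. For Rhox6 they were the imprinted RNA gene H19 (0.59), Ftl1-ps1 (0.61), Tbx20 (0.63), Plekhg4 (0.67) and Dgat2 (0.72). Rhox9 had closer neighbours, with Lgals4 at 0.12, Eno1b at 0.20, Ftl2-ps at 0.28, Barx1 at 0.29 and Pogk at 0.36. The 10 genes nearest to Rhox6 and Rhox9 were all called higher in Ring1A+B-DKO and in no other comparison. They were sought by these same values, so their calls follow largely from the search and are no separate result. The distance is a description over 4 comparisons, 3 of which share E14-WT.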

How the data were processed

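Embryonic stem cells of 5 groups, with 3 replicates each, were profiled by RNA-seq after removal of small and ribosomal RNA, per the labels' protocols. Per the submitters' processing notes, TopHat, featureCounts and DESeq2 were used, on GRCm38 (mm10). Versions, settings, the criteria of the call and the use of strand could not be read from the labels and headers. What the authors deposited is 1 table, in which 38355 genes have a log2 fold change and a true or false call in each of 4 comparisons, with Ensembl release 72 identifiers per the file headers. It holds no counts, errors, p-values or values per sample, so depth and replicate spread are unknown, no test could be run, and the authors' call stands in for one.

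Direction was set from missing values, read as no reads in either group. Of 16 patterns of missing values 13 are possible under that reading, and 13 were seen. Genes with reads in the named group alone were positive in 922 of 922 cases for Ezh2-KO. They were negative in all 1064, 2259 and 1170 cases for Suz12-KO, Ring1A+B-DKO and Ezh2-WT, so these 3 columns were turned. The same reading gave the groups with and without reads of each gene.

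Gene symbols and positions are those of GENCODE mouse release 21 (GRCm38), which matched 36602 identifiers (95.4%). Genes were called near-identical from alignments by blastn 2.17.0 (at least 95% identity over 100 nt and 50% of the shorter transcript). Promoter windows are RefSeq's on GRCm38.p6, from 250 bases before to 50 bases after a transcript's start. The planned comparison of proteins was not made. Computations used Python 3.11.15, numpy 2.4.6, pandas 2.3.3 and matplotlib 3.10.9.

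The 7 Rhox genes, the lists and the naming rule were chosen with earlier results of these data known. The rule names every Rhox gene with a value, called or nearest genes within 0.5 Mb, up to 4 called genes per list, and the 5 genes nearest in pattern to each Rhox gene called in Ring1A+B-DKO. Other named genes, among them called genes shared between comparisons and uncalled list members, were chosen after their values were seen. Alternatives were other size thresholds, centring, the direction in the headers and a shorter promoter window.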

Additional observations from a re-analysis of the deposited data

How the results depend on the processing

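The count of members that rose was 0 in Ezh2-KO and 0 in Ezh2-WT by the authors' call, and it stayed there at a log2 fold change of at least 1 or 2 with no call needed and at 1.5 with a call. In Suz12-KO the count of 1 became 0 at a log2 fold change of at least 2. Of all genes with a value, 0 of 18498 in Suz12-KO and 0 of 18097 in Ezh2-KO reached 2. The counts at 2 could therefore only be 0 in these comparisons. In Ring1A+B-DKO the count of 3 became 2 both at 2 and at 1.5 with a call, as Rhox5 dropped out. With the direction in the headers the counts of members that rose were 0 in Suz12-KO and 0 in Ring1A+B-DKO, where the called members then fell. Centring on the median of all genes or of X-linked genes left 19 of 20 member values on the same side of 1, and moved Rhox5 in Ring1A+B-DKO to 0.94 and 0.95. In the last 200 bases of the promoter windows CACGTG was in 5.45% and TTCCCGC in 3.39% of windows. No paired analysis was possible because the table holds no values per sample, and leaving out replicates was not run for the same reason. Depth per sample is unknown, so a missing or uncalled Rhox value does not show that a gene is silent.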
